A study of Mus musculus with 8 samples.

Results

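The 39 Hox genes were taken as all protein-coding genes of the RefSeq annotation (GRCm38.p6, which shares its coordinates with mm10) whose symbol is Hoxa, Hoxb, Hoxc or Hoxd followed by a number, out of 21883 protein-coding genes. They lie in 4 clusters, with 11 genes in HoxA, 10 in HoxB, 9 in HoxC and 9 in HoxD. The cells were Beta-TC6, an insulin-secreting tumour line from a transgenic mouse in which the insulin promoter drives a viral large T antigen, harvested at confluence with no treatment named in the labels. ChIP-seq gave 1 library for each of 6 targets, namely BMAL1 and CLOCK (the paired activators of the circadian clock), PDX1 (a homeodomain factor of beta cells), the histone modifications H3K4me2 and H3K27ac, and the histone variant H2A.Z. Inputs from the same line served as controls for peak calling, and with 1 library per target there was no replicate spread and no test between conditions.

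Hox genes encode homeodomain transcription factors that give cells their position along the body axis, and their order along each cluster follows the order in which they are used from head to tail. Members with the same number in different clusters are paralogues. In cells that do not use them the clusters are commonly held silent by the Polycomb complexes, which place H3K27me3, a mark that was not profiled here. H3K4me2 lies at promoters and enhancers whether active or poised, H3K27ac at active ones, and H2A.Z at many promoters. PDX1 itself is encoded by a ParaHox gene, a sister family of the Hox clusters.

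In these lists the Hox clusters held H3K4me2 and nothing else. A window was defined as a cluster span, from the lowest start to the highest end of its Hox genes, with 20 kb on either side. The 4 windows came to 652.1 kb in all and held the centres of 12 H3K4me2 intervals, 0 H3K27ac intervals, 0 H2A.Z intervals, 0 PDX1 peaks, 0 BMAL1 peaks and 0 CLOCK peaks. Of these 12 intervals 11 had fewer tags than the median of their list, and 10 of the 39 genes had one within 1 kb of a gene end.

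The sequences at the starts of Hox genes are shown first, because H3K4me2 overlapped only 2 of the Hox promoters available in RefSeq, those of Hoxa13 and Hoxd1. Each is printed with an unmarked paralogue, the start of Hoxd13 for Hoxa13 and that of Hoxb1 for Hoxd1. Each sequence runs 5′ to 3′ from 250 bases before to 50 bases after the annotated start (GRCm38.p6), and capitals mark CpG dinucleotides. Hoxa13 is at chr6:52260831-52261130 on the minus strand, Hoxd13 at chr2:74667975-74668274 on the plus strand, Hoxd1 at chr2:74762730-74763029 on the plus strand and Hoxb1 at chr11:96365508-96365807 on the plus strand.
Hoxa13, overlapped by H3K4me2: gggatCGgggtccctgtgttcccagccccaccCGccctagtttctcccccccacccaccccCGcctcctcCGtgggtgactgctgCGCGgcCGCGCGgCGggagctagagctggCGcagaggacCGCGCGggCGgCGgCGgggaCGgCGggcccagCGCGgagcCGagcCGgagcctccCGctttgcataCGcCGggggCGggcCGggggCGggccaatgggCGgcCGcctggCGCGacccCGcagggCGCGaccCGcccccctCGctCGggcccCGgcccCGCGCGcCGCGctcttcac
Hoxd13, not overlapped: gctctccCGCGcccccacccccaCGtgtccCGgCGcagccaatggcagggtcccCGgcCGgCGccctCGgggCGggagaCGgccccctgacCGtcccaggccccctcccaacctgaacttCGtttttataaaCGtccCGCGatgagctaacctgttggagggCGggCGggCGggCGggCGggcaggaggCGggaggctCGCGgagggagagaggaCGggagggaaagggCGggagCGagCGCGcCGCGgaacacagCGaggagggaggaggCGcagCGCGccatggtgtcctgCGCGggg
Hoxd1, overlapped by H3K4me2: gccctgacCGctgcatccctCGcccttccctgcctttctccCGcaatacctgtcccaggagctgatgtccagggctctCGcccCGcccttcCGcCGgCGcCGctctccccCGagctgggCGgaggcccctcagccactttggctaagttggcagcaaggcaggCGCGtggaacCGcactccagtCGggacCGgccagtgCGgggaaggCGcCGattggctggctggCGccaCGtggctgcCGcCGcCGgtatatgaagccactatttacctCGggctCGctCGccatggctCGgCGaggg
Hoxb1, not overlapped: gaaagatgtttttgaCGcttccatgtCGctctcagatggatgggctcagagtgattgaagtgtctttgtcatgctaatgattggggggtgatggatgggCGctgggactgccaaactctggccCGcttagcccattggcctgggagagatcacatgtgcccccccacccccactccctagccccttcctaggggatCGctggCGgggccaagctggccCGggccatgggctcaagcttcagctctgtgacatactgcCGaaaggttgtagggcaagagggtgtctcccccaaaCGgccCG
The Hoxa13 promoter held 45 CpG dinucleotides with a GC content of 81.0%, and that of its unmarked paralogue Hoxd13 held 37 at 74.3%. The Hoxd1 promoter held 29 CpG at 69.7% and that of Hoxb1 10 CpG at 59.3%. A high CpG content was thus present with H3K4me2 at Hoxa13 and without it at Hoxd13.

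RefSeq gave 24 promoters for 22 of the 39 Hox genes, 10 of them in HoxA, 3 in HoxB, 1 in HoxC and 10 in HoxD, so that the statements on promoters rest mainly on HoxA and HoxD. Of the 24, 11 were CpG-rich (GC content of at least 50% and an observed over expected CpG ratio of at least 0.6), a share of 45.8% against 45.2% of the 21230 promoters of other protein-coding genes. In base composition the Hox promoters were therefore close to promoters at large. Within 1 kb of the start, 3 of the 11 CpG-rich Hox promoters had H3K4me2, and 0 of 11 had H3K27ac or H2A.Z. Of all 9598 CpG-rich promoters 87.3% had H3K4me2, 67.7% had H3K27ac and 52.2% had H2A.Z. Taking all 24 Hox promoters, 4 were within 1 kb of H3K4me2, at Hoxa5, Hoxa13, Hoxd1 and Hoxd8, against 55.9% of all promoters. H3K27ac was near 0 of the 24 and 40.5% of all promoters, and H2A.Z near 0 of the 24 and 32.1%.

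The hexamer CACGTG, the canonical E-box to which BMAL1 and CLOCK bind as a pair, was searched in the 300-base promoters. It reads the same on both strands. It was present in 5 of the 24 Hox promoters (20.8%), all 5 in HoxD (Hoxd1, Hoxd4, Hoxd10, Hoxd11 and Hoxd13), and in 7.84% of all 21254 promoters. No BMAL1 or CLOCK peak lay within 1 kb of any of the 24 starts, against 2.08% and 2.48% of all promoters, a background at which a count of 0 carries little information. The tetramer TAAT, the core read by many homeodomains and searched on both strands, was in 19 of the 24 (79.2%) and in 51.8% of all promoters. PDX1 peaks lay within 1 kb of 0 of the 24 starts and of 2.92% of all starts. At this background too a count of 0 carries little information.

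**Figure D1:**
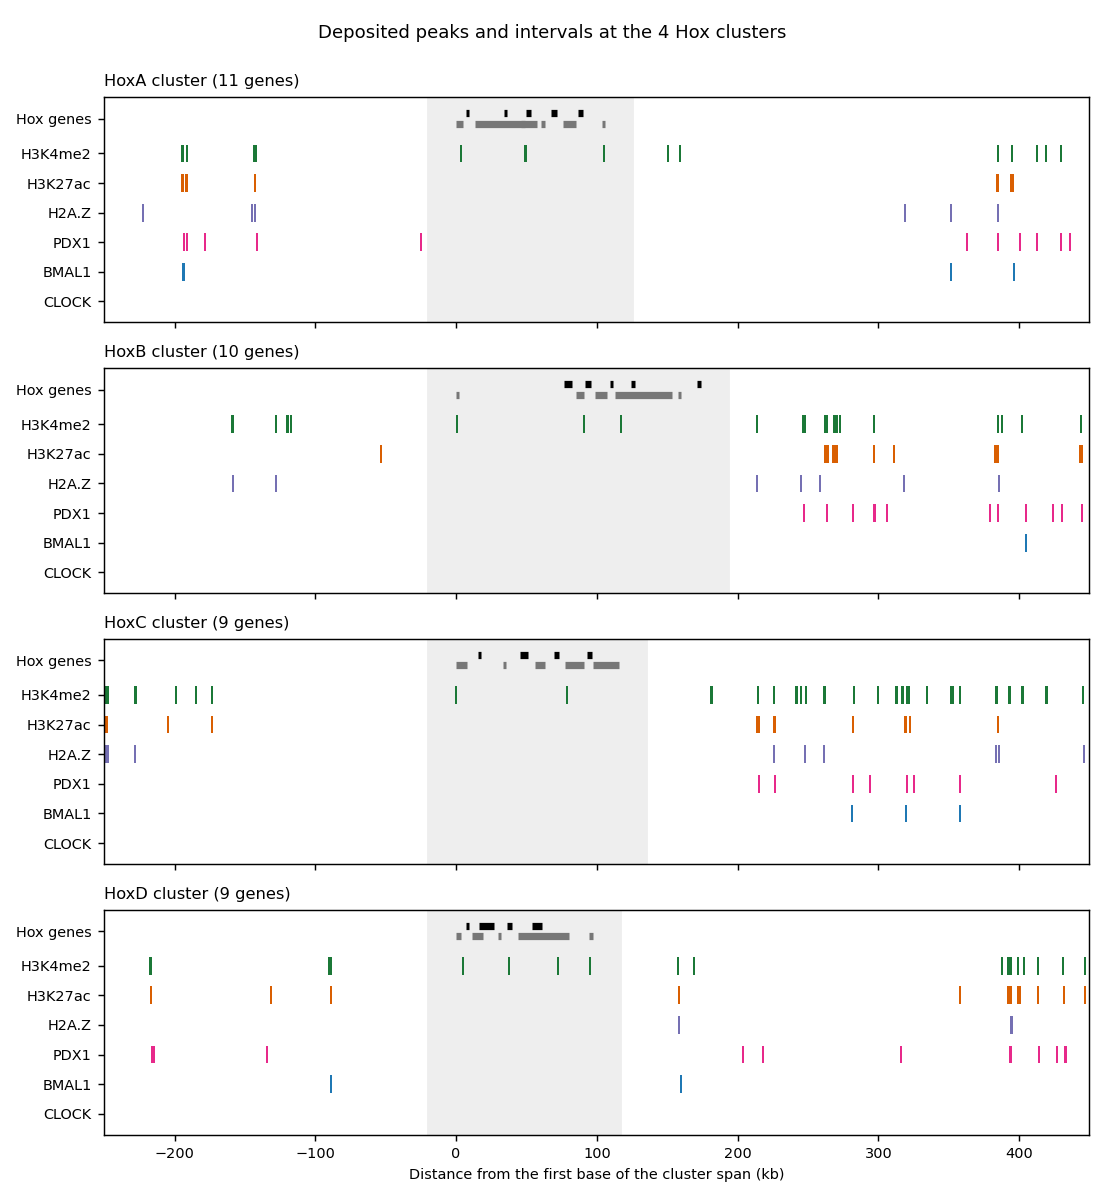
Hox genes and the deposited intervals of the 6 lists at each cluster, by distance in kb from the first base of the cluster span. Grey shading marks the window of the span and 20 kb on either side, genes alternate between 2 rows in order of position, and narrow intervals are widened so that they can be seen. Inside the shading only the H3K4me2 row holds intervals, 12 in all.

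Depth bears on every count of 0. The libraries had between 12892080 tags (BMAL1) and 26678241 tags (H3K4me2), and a histone interval needed 17 tags in 500 bp for H3K4me2, 14 for H2A.Z and 11 for H3K27ac, per the file headers. A site below these thresholds, or below 4 times the input, is in no list. A count of 0 means that no site passed at this depth and enrichment. Intervals held 37.2% of the tags of the H3K27ac library, 21.03% of those of H3K4me2 and 3.12% of those of H2A.Z, the lowest of the histone targets. The cell line was checked on marker genes. All 12 beta-cell markers had H3K27ac within 1 kb of a gene end, beside 39.9% of all protein-coding genes. Among them were Ins1, Ins2, Pdx1 and Mafa. H3K27ac was also at 1 of 7 alpha- and delta-cell markers (Gcg), of which 5 had H3K4me2, at 0 of 6 acinar and duct markers, and 1 of 7 fibroblast, endothelial and immune markers (Cd68).

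H3K4me2 was the one mark found at the clusters. Its 12 intervals (exact Poisson 95% interval 6.20 to 21.0, counting error only) gave 18.4 per Mb of window, against 15.1 per Mb over the genome, at which 9.86 would fall in windows of this length. The cluster spans were covered by H3K4me2 over 1.58% of their length and the genome over 1.96%. Neither value sets the clusters apart from the genome at large. Hox genes are packed far more densely than genes elsewhere, and counted by gene the picture was different. An interval lay within 1 kb of either gene end at 10 of 39 Hox genes (25.6%, Wilson 95% interval 14.6 to 41.1), against 55.8% of all protein-coding genes. Counting any interval in the gene span gave 11 of 39, against 62.5% of all genes. A span count covers more bases in a longer gene, and the share of all genes was not matched for gene length. The 39 genes share 4 loci and are not independent, and no test was made.

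The 10 genes drew on 8 intervals, since 2 intervals each served a pair of neighbours. By paralogue number, the 12 anterior genes (groups 1 to 4) included 1 with H3K4me2 at an end, Hoxd1. Of the 11 central genes (groups 5 to 8) 6 had it, namely Hoxa5, Hoxa6, Hoxb7, Hoxb8, Hoxc6 and Hoxd8. Either end counts here, and the available promoters of Hoxa6 and Hoxb8 had no H3K4me2 within 1 kb of the start. Of the 16 posterior genes (groups 9 to 13) 3 had it, and these were Hoxa13, Hoxb13 and Hoxc13, all of the last paralogue group. Hoxd13, the remaining gene of that group, had its nearest interval 1043 bp beyond its span. The order of the classes depended on the rule, since an interval anywhere in the gene span was found for 5 of the 12 anterior, 4 of the 11 central and 2 of the 16 posterior genes. Those 5 anterior genes included the longest Hox spans, Hoxa3 (44009 bp), Hoxb3 (40830 bp) and Hoxd3 (36279 bp), and also Hoxd1 (2163 bp). The Hoxa3 span shared its interval with Hoxa5. Whether span length accounts for the change of order was not tested. By cluster the counts were 3 of 11 in HoxA, 3 of 10 in HoxB, 2 of 9 in HoxC and 2 of 9 in HoxD, so that no cluster held most of the mark.

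The interval at Hoxa13, a gene of limb, gut and genital patterning, was 1409 bp wide (chromosome 6, 52259870 to 52261279), with 22.1 normalized tags (scaled to 10000000 tags per library), a score of 26 and 6.24 times the input. It spanned the annotated start shown above. The interval at Hoxd1 (chromosome 2, 74762596 to 74763096) was 500 bp wide with 7.12 normalized tags and a score of 19, the lowest of the 12. It reached the start of Hoxd1 and the upper end of the span of the neighbouring non-coding gene Haglr. The reads therefore cannot be given to either gene. The Hoxa13 interval was thus among the widest of the 12 and the Hoxd1 interval among the weakest.

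At the central genes, the centre of one interval lay 383 bp from an end of Hoxa5, a gene of lung and cervical skeleton development (chromosome 6, 52203954 to 52204454, 9.0 normalized tags, score 25). It also fell within 1 kb of Hoxa6, inside the long annotated span of Hoxa3 and inside the non-coding gene Hoxaas3. In HoxB an interval of 769 bp (chromosome 11, 96284246 to 96285015, 19.5 normalized tags, score 45) was inside Hoxb8 and within 1 kb of Hoxb7. In HoxC an interval of 753 bp inside Hoxc6 (chromosome 15, 102999015 to 102999768) had 24.4 normalized tags and a score of 51, the highest score of the 12. In HoxD an interval of 955 bp inside Hoxd8 (chromosome 2, 74704912 to 74705867) had 14.2 normalized tags and a score of 23. Its fold over input, 20.09, was the highest of the 12 and rested on 1 input tag. The central intervals in HoxB and HoxC were the only 2 of the 12 at or above the median score of the list.

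The remaining gene-end intervals were at posterior genes on the outer edge of their clusters. The interval at Hoxb13, a gene of the tail bud and prostate, covered the lower gene end (chromosome 11, 96194177 to 96194677, 500 bp, 7.5 normalized tags, score 20). The interval at Hoxc13, a gene of hair and nail, lay 307 bp outside the gene (chromosome 15, 102920324 to 102920824, 500 bp, 7.12 normalized tags, score 20). Both were of the smallest width that the caller gives.

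A further 4 intervals were more than 1 kb from every Hox gene end. One lay inside the span of Hoxb3, a gene of hindbrain and pharyngeal arch patterning (chromosome 11, 96310747 to 96312168, 1421 bp). It was the widest of the 12 and had the most normalized tags, 47.6, with a score of 25 and 8.39 times the input. A smaller one lay inside Hoxd3 (chromosome 2, 74739977 to 74740477, 7.5 normalized tags). Another lay between Hoxd13 and Hoxd12 (chromosome 2, 74672646 to 74673146, 8.62 normalized tags). Exons and introns were not determined, as the gene table gives spans only. Of 24 long non-coding genes inside the spans 5 overlapped H3K4me2, through 4 intervals, against 32.3% of all long non-coding genes. Of the 6 miRNA genes there, which include Mir10a and Mir10b, 0 did, against 10.2% of all miRNA genes.

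Within the H3K4me2 list the Hox intervals were small. They had a median of 9.18 normalized tags (7.12 to 47.6) against 28.9 for all other intervals, and 11 of 12 were below the median of the list. Their median width was 500 bp against 939 bp, and 7 of 12 (58.3%) had the minimum width of 500 bp against 25.8% of the other intervals. At this width the difference in tags was small. The 7 Hox intervals of 500 bp had a median of 7.5 normalized tags and a median score of 20. The 10627 other intervals of 500 bp had 7.87 and 21. Scores of 25 or less were found for 9 of 12 (75.0%) and for 40.6% of the list. The fold over input did not share this pattern, with a median of 6.16 against 5.72. Input tags were present in each of the 12, between 1 and 8 per interval, with a median of 4.0 per kb against 7.23 per kb in the other intervals and 4.0 per kb in the other intervals of 500 bp.

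**Figure D2:**
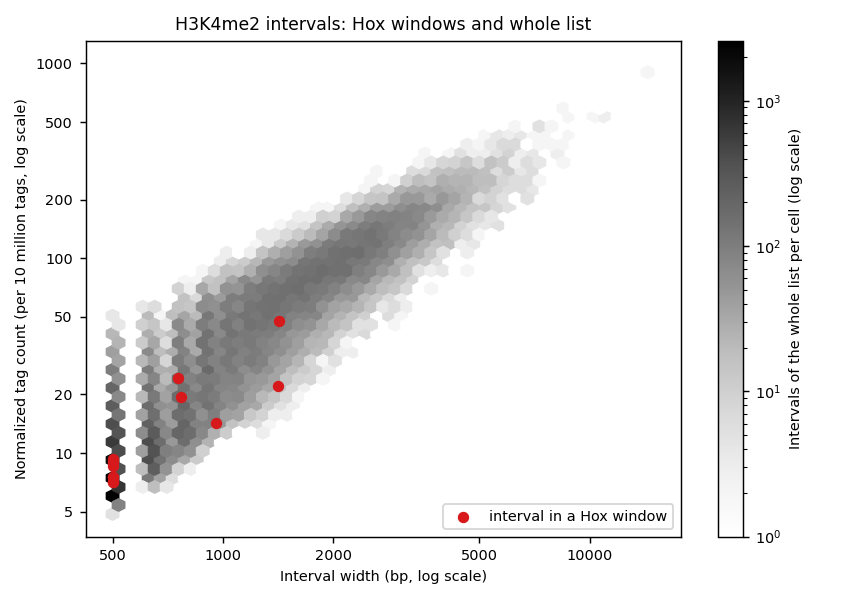
Width in bp and normalized tag count of all 41140 H3K4me2 intervals (grey cells, darker for more intervals) and of the 12 in the Hox windows (red points), both axes on log scales. The red points lie between 500 and 1421 bp and at most 47.6 normalized tags, in the lower left of the distribution.

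H2A.Z and H3K27ac were then set against H3K4me2. Of the 12 Hox intervals of H3K4me2, 0 overlapped H3K27ac and 0 overlapped H2A.Z, whereas 51.2% and 25.6% of all H3K4me2 intervals did. Part of the list is like the Hox intervals in this. Neither mark was present at 38.3% of the other intervals, at 50.6% of the 28180 no wider than the widest Hox interval (1421 bp), and at 69.0% of those of 500 bp. Of the narrow intervals 4984 reached a gene end to within 1 kb. Of those 48.2% overlapped H3K27ac and 31.9% H2A.Z, beside 0 of the 8 Hox intervals at gene ends. These sets were not matched for strength. The 4984 had a median of 41.2 normalized tags, a score of 46 and a width of 942 bp, and the 8 had 11.6, 24 and 626.5 bp. Counted by gene, 10 of the 10 Hox genes with H3K4me2 at an end had neither mark there, as did 16.5% of all genes with H3K4me2 at an end, of which 65.5% had H3K27ac and 53.5% H2A.Z.

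Over all 39 genes, 0 had H3K27ac and 0 had H2A.Z within 1 kb of a gene end, beside 39.9% and 33.0% of all protein-coding genes. Inside the gene spans the counts were again 0 of 39, against 47.7% and 37.2% of all genes, and within 20 kb of them 0 of 39, against 63.4% and 60.7%. These shares of all genes were not matched for gene length. At their genome-wide densities 7.13 H3K27ac and 6.34 H2A.Z intervals would fall in windows of the same length. The distances show how far the nearest intervals were. From the gene span to the nearest H2A.Z interval the median over Hox genes was 139 kb, from 39.1 kb at Hoxb1 to 228 kb at Hoxa11, against a median of 6.57 kb over other genes. For H3K27ac the median was 140 kb, from 52.3 kb at Hoxb13 to 247 kb at Hoxa13, against 1.29 kb over other genes. For H3K4me2 it was 4.74 kb, from 0 to 39.5 kb at Hoxb2, and 35 of the 39 genes had an interval in the span or within 20 kb, against 75.0% of all genes. The 4 without were Hoxb1, Hoxb2, Hoxc10 and Hoxc11.

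The clusters differed in these distances. The median gap of a gene to H3K4me2 was 1.87 kb in HoxD, 3.62 kb in HoxA, 5.36 kb in HoxB and 14.6 kb in HoxC. By class it was 0.589 kb for central genes, 4.86 kb for anterior and 8.73 kb for posterior genes. The median gap to H3K27ac was 96.6 kb in HoxD and 193 kb in HoxA, with HoxB (132 kb) and HoxC (150 kb) between them. The median gap to H2A.Z ran from 103 kb in HoxB to 192 kb in HoxA. For PDX1 the order was different, with HoxA nearest at 74.9 kb and the other clusters between 137 and 151 kb. Genes of 1 cluster share their nearest intervals, so these medians describe 4 loci and not 39 separate genes.

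**Figure D3:**
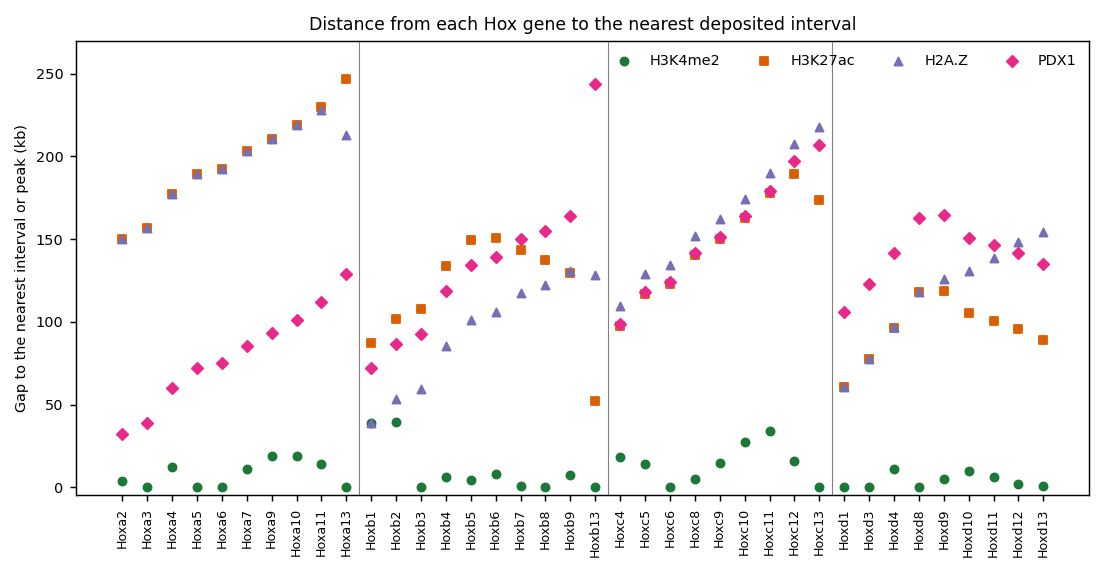
Gap in kb from the span of each Hox gene to the nearest interval of H3K4me2, H3K27ac and H2A.Z and the nearest PDX1 peak, with genes ordered by cluster and number (grey lines divide the clusters, and 1 HoxA gene is not shown). H3K4me2 points stay at or below 39.5 kb, and the H3K27ac and H2A.Z points lie at 39.1 kb or more. BMAL1 and CLOCK are left out because their gaps run past the axis.

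The 3 transcription factors were likewise without a peak in the windows. PDX1, with 34883 peaks, would have 8.36 in windows of this length at its genome-wide density. It had none within 20 kb of any of the 39 genes, against 41.3% of all protein-coding genes with one, and none inside a Hox gene, against 23.5%. Neither share was matched for gene length. At gene ends PDX1 was rare everywhere, with 3.97% of all genes, so the count of 0 of 39 there lies near the background. The nearest PDX1 peak of all was 25.4 kb outside the HoxA cluster (score 19, the median of its list). For BMAL1 and CLOCK the densities correspond to 0.989 and 0.33 peaks in the windows, and 2.29% and 2.43% of all genes had one at an end, so their absence from 39 genes is not distinguishable from the background. Inside gene spans the background was 7.78% for BMAL1 and 3.56% for CLOCK, and within 20 kb it was 14.1% and 8.25%, each beside 0 of 39 Hox genes. Gene length was not matched here either. The nearest BMAL1 peak was 61.8 kb from HoxD, inside Mtx2 (score 14). The nearest CLOCK peak was 295 kb from HoxC, near an end of the span of Atf7 (score 32). Atf7 was named after its values were seen.

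Taking the 5 lists other than H3K4me2 as one, each cluster sat in a stretch with no peak or interval of any of them. The stretch was 344 kb long at HoxA, 265 kb at HoxB, 387 kb at HoxC and 247 kb at HoxD. Each length takes in the gaps on both sides of the cluster. Stretches free of the 5 lists were not measured elsewhere in the genome, so whether these lengths are unusual was not tested. All 39 Hox genes had none of these 5 within 20 kb, as did 22.0% of all protein-coding genes. The stretches ended at different features. At HoxA they ran from the PDX1 peak 25.4 kb away to an H2A.Z interval 213 kb beyond Hoxa13. At HoxB they ended at H3K27ac inside Ttll6, a tubulin-modifying enzyme gene, 52.3 kb away, and at H2A.Z 39.1 kb past Hoxb1. That H2A.Z interval (chromosome 11, 96407340 to 96407840, score 15) lay on H3K4me2 and not on H3K27ac. At HoxC both limits were H3K27ac, 174 kb and 97.6 kb away. At HoxD both limits were H3K27ac too, 89.0 kb away inside Lnpk (named after its values were seen) and 60.6 kb away at Mtx2.

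Some of the genes next to the clusters carried H3K27ac and H2A.Z. Mtx2, a mitochondrial outer-membrane gene 60.7 kb from HoxD, had H3K4me2, H3K27ac and H2A.Z at its ends, as did Skap2, a signalling adaptor gene 143 kb from HoxA. Skap1, 96.3 kb from HoxB, had H3K4me2 and H3K27ac at an end, and Smug1, a DNA repair gene 116 kb from HoxC, had H3K4me2 and H2A.Z. Calcoco1, on the other side of HoxC, had H3K4me2 alone at its ends and H3K27ac elsewhere in its span. The 2 Evx genes, homeobox genes that adjoin HoxA and HoxD, had neither of these marks at an end. Evx1, 52.6 kb from HoxA, had H3K4me2 only (25.5 normalized tags), and Evx2, 6.71 kb from Hoxd13 and inside the HoxD window, had none of the 6. Ttll6 had no interval within 1 kb of an end.

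With the 4 clusters summed, H3K27ac and H2A.Z intervals were denser with each step away, which no single cluster showed at every step. Summed, H3K27ac went from 0 per Mb within 20 kb of the cluster edges to 9.38 per Mb at 20 to 100 kb, 11.2 at 100 to 200 kb, 22.9 at 200 to 500 kb and 23.8 at 500 to 1000 kb. Its density over the genome was 10.9 per Mb. H2A.Z went from 0 to 6.25, 10.0, 12.5 and 14.0 per Mb over the same distances (9.73 over the genome), and PDX1 from 0 to 6.25, 16.2, 22.5 and 13.5 (12.8 over the genome). In HoxB, H2A.Z went from 18.8 per Mb at 20 to 100 kb to 8.33 at 200 to 500 kb, and in HoxD H3K27ac went from 12.5 at 20 to 100 kb to 5.0 at 100 to 200 kb. H3K4me2 had 6.25 per Mb within 20 kb, where it rests on the single interval beside Hoxc13, and 34.8 per Mb at 500 to 1000 kb. Values in the 20 kb flanks rest on a short total length and few intervals.

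**Figure D4:**
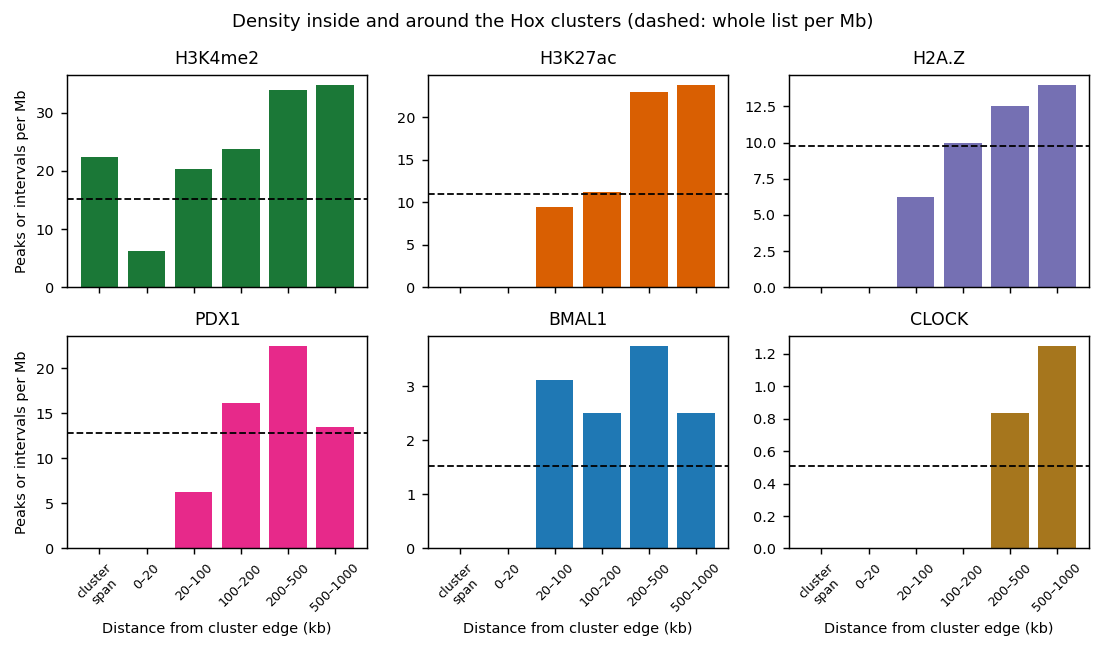
Peaks or intervals per Mb inside the 4 cluster spans and in 5 distance classes from the cluster edges in kb, both sides and all clusters summed, for each list with its own scale. The dashed line is the density of the whole list over the genome. In 5 of the 6 panels the first 2 bars are 0.

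The partners and regulators of Hox genes were examined through lists chosen for their known roles, with earlier results of these data known. The 9 HOX cofactor genes of the Pbx, Meis and Pknox families, which encode the homeodomain partners that bind DNA with HOX proteins, had H3K4me2 at an end in 9 of 9, H3K27ac in 8 of 9 and H2A.Z in 5 of 9 cases, beside 55.8%, 39.9% and 33.0% of all protein-coding genes. Meis3 had H3K4me2 (93.0) and H2A.Z (16.7) but no H3K27ac. Meis1 was the 1 cofactor gene with a CLOCK peak (score 18).

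Of 23 Polycomb genes, which encode the complexes that hold Hox genes silent, 21 had H3K4me2, 20 H3K27ac and 11 H2A.Z at an end (91.3%, 87.0% and 47.8%, beside 55.8%, 39.9% and 33.0% of all genes). The Wilson 95% interval of the H2A.Z share, 29.2 to 67.0, includes the 33.0% of all genes. Ezh1, a methyltransferase for H3K27, had all 3 marks (H3K27ac 257.6 normalized tags). Pcgf2, a subunit of the first Polycomb complex, had H3K4me2 over 7004 bp and no H3K27ac. Of 10 Trithorax genes, which act against Polycomb, 8 had H3K4me2, 7 H3K27ac and 4 H2A.Z (80.0%, 70.0% and 40.0%). Their Wilson 95% intervals were 49.0 to 94.3, 39.7 to 89.2 and 16.8 to 68.7. Each includes the share of all genes, 55.8%, 39.9% and 33.0%. Kmt2a, the H3K4 methyltransferase MLL, had H3K27ac of 576.3 normalized tags, and Men1, its partner menin, had H3K4me2 and H2A.Z without H3K27ac.

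Of the 8 ParaHox and Evx genes 4 had H3K4me2 at an end, 2 H3K27ac and 1 H2A.Z. The shares of 50.0% (Wilson 95% interval 21.5 to 78.5), 25% (7.15 to 59.1) and 12.5% (2.24 to 47.1) are not distinguishable from the 55.8%, 39.9% and 33.0% of all genes. Pdx1 had all 3 marks, with an H3K27ac interval 19620 bp wide of 5857.0 normalized tags. Cdx2 had H3K4me2 and H3K27ac (300.8). Gsx1 and Evx1 had H3K4me2 alone, at 357.2 normalized tags for Gsx1. The other 4, Gsx2, Cdx1, Cdx4 and Evx2, had none. The H3K4me2 interval of the Hox windows with the most normalized tags, inside Hoxb3, had 47.6. It was 1421 bp wide with a score of 25, and that of Gsx1 was 4142 bp wide with a score of 27.

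**Figure D5:**
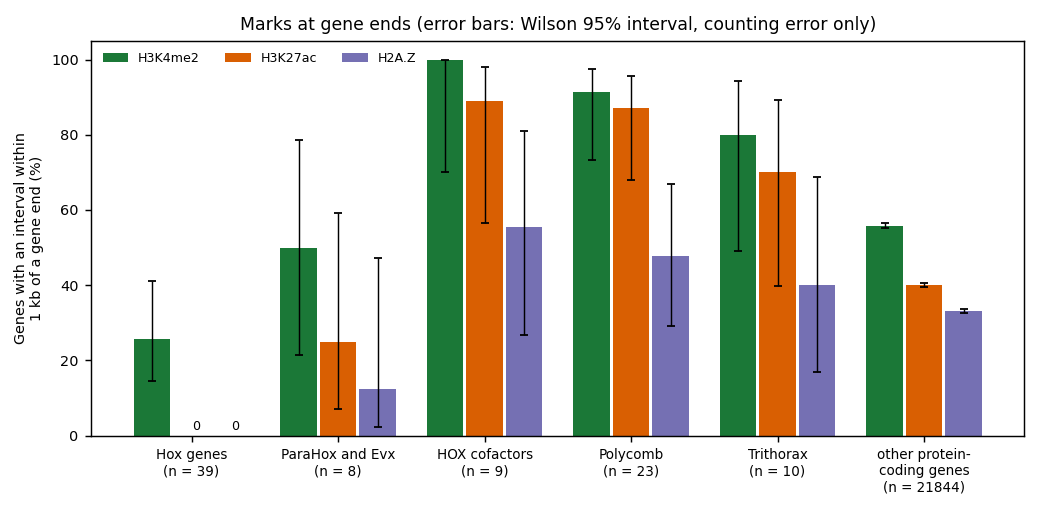
Share of genes with an interval of H3K4me2, H3K27ac or H2A.Z within 1 kb of a gene end, for the Hox genes, 4 lists of related genes and all other protein-coding genes, with Wilson 95% intervals that cover counting error only. The Hox genes stand at 25.6% for H3K4me2 and at 0 for both other marks, and no interval is drawn for a share of 0.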

How the data were processed

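ChIP-seq was measured in 6 Beta-TC6 libraries, 1 per target. The submitters' processing notes name Bowtie 1.1.1, HOMER (version not given in the sources used here) and mm10. Peaks were called library by library with findPeaks against an input, in the factor style for BMAL1, CLOCK and PDX1 and the histone style otherwise, at 4 times the input, per the file headers. By the headers, PDX1, H3K4me2 and H3K27ac shared a pooled input, and BMAL1, CLOCK and H2A.Z shared a different pooled input. H2A.Z was thus compared with H3K4me2 and H3K27ac across inputs. The sample text and the header of the H2A.Z list name different inputs, and that of the header was taken. Normalized tags, as deposited, are a signal scaled by the caller to 10000000 tags per library. The deposited score and the deposited fold over input, a ratio, described or filtered peaks within their own list. Deposited input tags in H3K4me2 intervals are an unscaled signal.

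Python 3.11.15, NumPy 2.4.6, pandas 2.3.3 and matplotlib 3.10.9 were used. Gene spans and promoters came from RefSeq (GRCm38.p6), with 21883 genes on the assembled chromosomes. Overlap meant at least 1 bp, and the functions were tested on simulated data with known answers. Genome densities use the 2720 Mb that the lists span. Singly described were Hox genes with H3K4me2, H3K27ac or a nearby factor peak, and outside genes next to a cluster or on a list. Members, lists and rules were chosen with earlier results of these data known. Alternatives were the gene rule, flank, score and fold. The values of 1 Hox gene and of 1 cofactor gene are counted in the totals and are not reported here.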

Additional observations from a re-analysis of the deposited data

How the results depend on the processing

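For Hox genes the alternative rules were the gene span, the annotated start and the interval centre. Stricter lists held the upper 50% by score or at least 8 times the input. H3K27ac and H2A.Z stayed at 0 in each, which was fixed in advance. Already 0 of 39 Hox genes had either mark within 20 kb of the span, and stricter settings only remove intervals. With flanks of 50 kb the windows held 1 H2A.Z interval, which overlapped H3K4me2 and not H3K27ac, 1 PDX1 peak, and 0 of H3K27ac, BMAL1 and CLOCK. With flanks of 100 kb, added after seeing the data, they held 4 H2A.Z intervals, 6 H3K27ac intervals, 4 PDX1 peaks, 2 BMAL1 peaks and 25 H3K4me2 intervals. H3K4me2 depended on the threshold, at Hox genes and over the whole list. Hox genes with it at an end went from 10 to 3 in the upper 50% by score, to 1 at 8 times the input and to 4 by annotated start, where only 22 genes have one. Over all genes the share with H3K4me2 at an end went from 55.8% to 41.7% by score and 6.79% at 8 times the input, beside 7.69% and 2.56% of Hox genes. Its 12 intervals went to 2 (16.7%) by score and 3 (25%) at 8 times the input, where the whole list kept 51.5% and 21.5%, and its cover of the spans from 1.58% to 0.309% and 0.584%. The share of H2A.Z intervals on H3K4me2 or H3K27ac has no value in the windows, without flanks or under the stricter settings, as there are 0 H2A.Z intervals. No paired analysis was possible because each target has 1 library, and leaving out a replicate was likewise impossible.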
